A study of Mus musculus with 8 samples.

Results

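Integrins and laminins were compared between 4 mouse gastric adenocarcinomas and 4 samples of normal mucosa. The genes were chosen by symbol, taking every integrin alpha chain, every numbered integrin beta chain and every laminin chain that the annotated array table names with a single symbol. This gave 37 of the 21626 genes measured, namely 18 integrin alpha chains, 8 integrin beta chains and 11 laminin chains. Where a gene had several probe sets, the one with the greatest average over the 8 arrays stood for it. The series description says that the tumours arose spontaneously in transgenic mice and were frozen fresh, and the labels describe the other samples only as normal mucosa. The labels give no transgene, promoter, strain, sex or age and leave unstated whether normal mucosa was taken from mice with the transgene. Separate animals are not stated either, so the p-values here reflect only sample-to-sample spread, part of which may be technical.

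Integrins are cell-surface receptors built from 1 alpha and 1 beta chain. They tie the cytoskeleton to the matrix outside the cell or to ligands on other cells, and the alpha chain largely sets which ligand is bound. Laminins are cross-shaped trimers of an alpha, a beta and a gamma chain, and they form the sheet of the basement membrane on which gastric gland cells, vessels and muscle cells rest. In the stomach, laminin-binding integrins sit at the base of epithelial cells, beta2 integrins mark leukocytes, and several collagen and fibronectin receptors belong mainly to stromal cells.

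In the adenocarcinomas 23 of the 37 genes rose, 1 fell and 13 were not called. The 4 genes with the largest rises were the collagen receptor chain Itga2 (19.4-fold), the fibronectin receptor chain Itga5 (8.57-fold), the collagen receptor chain Itga1 (7.21-fold) and the laminin chain Lama5 (5.56-fold). The 3 alpha chains that bind mainly laminin, Itga3, Itga6 and Itga7, and the beta chain of hemidesmosomes, Itgb4, were not called. All 5 laminin alpha chains rose. The single fall was that of Itgad, by 0.65 on the log2 scale.

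Values are log2 expression values made by the authors with RMA (robust multi-array average), and a difference is adenocarcinoma minus normal mucosa on that scale. Genes were called at an adjusted p under 0.05 from limma, fitted over all 21626 genes with Benjamini-Hochberg adjustment. Of all genes, 41.8% were called, 18.2% as higher and 23.6% as lower. Against this, 64.9% of the integrins and laminins were called and 62.2% were higher. Rises of at least 2-fold were called for 18 of the 37 (48.6%) and for 6.63% of all genes, and falls of that size for 0 of the 37 and for 3.15% of all genes. The groups did not overlap for 21 of the 37, and for 34.3% of all genes. The median difference of the 37 genes was 0.825, beside -0.10 over all genes. Rises made up 95.8% of the calls among the 37 and 43.6% of those among all genes. Under median centring, cyclic loess and centring on olfactory and vomeronasal receptor genes rises made up 88.5%, 95.8% and 96.2% of the calls among the 37, against 37.6%, 56.9% and 73.8% among all genes.

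**Figure D1:**
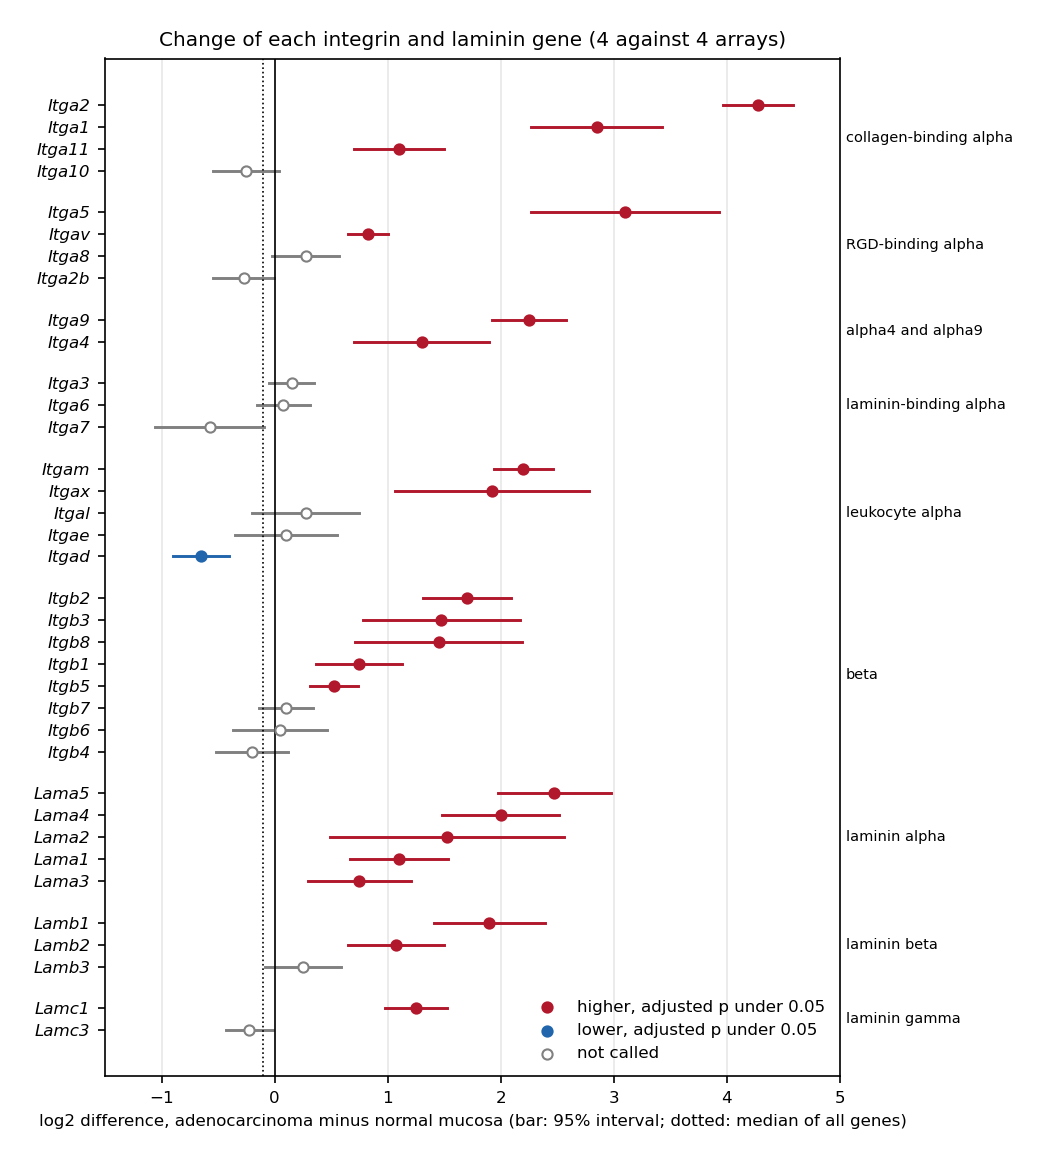
Log2 difference, adenocarcinoma minus normal mucosa (horizontal axis), for 36 of the 37 genes (rows, grouped by ligand or chain type), with the 95% interval of the difference, not adjusted for multiple testing; filled red points were called higher, filled blue lower and open grey points were not called, and the dotted line is the median of all genes. Itga2 lies farthest to the right at 4.28 and Itgad is the 1 called fall at -0.65.

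The arrays bore on these values as follows. Medians over gene probe sets were 8.1 to 8.2 on every array. Olfactory and vomeronasal receptor genes, which the stomach is not known for (1330 genes), gave a level of background: their 95th percentile was 7.1 to 7.3 in adenocarcinomas, against 7.3 to 7.6 in normal mucosa. In normal mucosa, 10 of the 37 genes did not exceed it on all 4 arrays (Itga1, Itga4, Itga8, Itga9, Itgae, Itgam, Itgax, Itgb8, Lama2 and Lama4), so for these genes the normal level was not clear of that background. Xist, the RNA that silences an X chromosome in females, was at 6.2 to 6.6 in adenocarcinomas, against 11.6 to 12.7 in normal mucosa, and the Y-linked Eif2s3y was at 9.2 to 11.0 in adenocarcinomas, against 5.1 to 5.3 in normal mucosa. In every difference between the groups given here, above and below, sex and tissue cannot be told apart, and age and genotype are not labelled. Both groups had high levels of the epithelial keratin Krt8, with 13.7 to 13.9 in adenocarcinomas, against 13.8 to 13.9 in normal mucosa. Of 5 markers listed for gastric epithelium, Epcam (0.60) and Krt18 (0.425) rose, Cldn18 (-0.575) fell and 2, Krt8 among them, were not called. The parietal cell pump subunit Atp4b was at 7.4 to 8.4 in adenocarcinomas, against 13.6 to 13.7 in normal mucosa. All 4 markers listed for parietal and chief cells fell (median -4.78).

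Among the collagen receptors, 3 of 4 alpha chains rose. Itga2, the alpha chain of a collagen receptor of epithelial cells and platelets, had log2 values of 12.4, 12.2, 11.9 and 12.5 in the adenocarcinomas, against 8.0, 8.0, 8.1 and 7.8 in normal mucosa. The lowest tumour stood 3.8 above the highest normal sample. The difference was 4.28 ± 0.138 (SE), with a limma adjusted p of 2.17e-07, and it lay between 4.11 and 4.43 under all alternative settings. Itga1, which binds collagens of basement membranes and is known from smooth muscle and mesenchymal cells, was at 10.2, 9.8, 10.9 and 10.2 in adenocarcinoma, against 7.1, 7.4, 8.0 and 7.2 in normal mucosa. Its groups were also separate, with a difference of 2.85 ± 0.257 and an adjusted p of 6.12e-05. Itga11, a fibroblast receptor for fibrillar collagen, rose by 1.10 ± 0.176 (adjusted p = 0.00155), with 8.5 to 9.3 in adenocarcinomas, against 7.7 to 7.9 in normal mucosa. Itga10, known as a collagen receptor of cartilage, was not called (-0.25, 95% interval -0.54 to 0.04).

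Itga2 and Itga1 are neighbours. In the deposited table, whose genome build no source used here names, Itga2 (probe set 10412267) lies on chromosome 13 from 115626033 to 115722260 and Itga1 (10412298) from 115750287 to 115892172, with 28.0 kb between them. Pelo, a ribosome rescue factor whose probe set lies within the span of Itga1, was at 8.55 in adenocarcinomas, against 8.78 in normal mucosa (group means) and was not called (-0.23, adjusted p = 0.127). The 200 bases before the start site of both genes, and of Itga5 and Lama5 as the next largest rises among integrins and among laminins, are shown because these 4 genes moved most. They are from RefSeq, build GRCm38.p6, and read 5′ to 3′ on the gene's strand, with matches to the GC box (GGGCGG or CCGCCC, the 2 strands of the same letters) in capitals.

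Itga2, chr13:114932101-114932300, minus strand: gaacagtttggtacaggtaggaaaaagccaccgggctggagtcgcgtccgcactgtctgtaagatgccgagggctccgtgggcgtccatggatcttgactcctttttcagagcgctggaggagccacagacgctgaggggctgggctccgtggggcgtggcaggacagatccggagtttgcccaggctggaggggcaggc
Itga1, chr13:115101965-115102164, minus strand: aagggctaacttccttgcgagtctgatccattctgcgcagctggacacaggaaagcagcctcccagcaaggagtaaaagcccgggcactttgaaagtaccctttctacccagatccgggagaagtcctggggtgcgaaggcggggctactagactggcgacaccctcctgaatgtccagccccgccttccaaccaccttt
Itga5, chr15:103366792-103366991, minus strand: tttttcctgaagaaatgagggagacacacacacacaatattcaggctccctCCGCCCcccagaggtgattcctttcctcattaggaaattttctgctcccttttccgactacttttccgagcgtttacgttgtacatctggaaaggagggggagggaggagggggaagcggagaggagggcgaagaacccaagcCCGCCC
Lama5, chr2:180225860-180226059, minus strand: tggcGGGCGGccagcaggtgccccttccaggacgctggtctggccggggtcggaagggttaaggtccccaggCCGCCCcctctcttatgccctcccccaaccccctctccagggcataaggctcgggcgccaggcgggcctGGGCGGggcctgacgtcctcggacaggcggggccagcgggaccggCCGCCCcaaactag

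The windows of Itga2 and Itga1 held no GC box, while that of Itga5 held 2 and that of Lama5 held 4. A window was found for 23 of the 37 genes, 26 windows in all. A GC box was in 7 of 16 windows of genes that rose (43.8%), in 1 of 10 windows of genes not called (10%) and in 31% of all 32851 promoter windows of the same length. The 10 windows of genes not called came from 7 genes. The median share of G and C bases was also unequal, at 61.8% in windows of genes that rose, 56.5% in those of genes not called and 53.0% in all windows. The AP-1 letters TGANTCA, which read the same on both strands, were in 1 of 16 windows of genes that rose, that of Itgax, in none of the 10 others and in 5.48% of all windows. The TEAD letters GGAATG or CATTCC were in 1 of 16, in 2 of 10 and in 10.1% of all. The motifs were chosen after the files were seen. These are matches of letters, not binding sites, and their counts were not tested.

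Receptors that recognise the RGD motif of fibronectin and related proteins were mixed. Itga5, the alpha chain of the main fibronectin receptor, was at 10, 11.2, 12.1 and 11.5 in adenocarcinoma, against 8.2, 8.0, 8.0 and 8.2 in normal mucosa. Every tumour lay above every normal sample, and the tumours were spread over 2.1 log2 units, with adenocarcinoma 1 lowest and adenocarcinoma 3 highest. The difference was 3.10 ± 0.368 (adjusted p = 0.000301). Itgav, which pairs with several beta chains to bind vitronectin and latent TGF-beta, was at 11.9, 11.9, 12 and 11.9 in adenocarcinoma, against 11.2, 11.1, 11.0 and 11.1 in normal mucosa. Its rise was modest, 0.825 ± 0.0798 or 1.77-fold, and the groups stood apart (adjusted p = 9.2e-05). Itga8, a nephronectin receptor, was not called (0.275, interval -0.02 to 0.57) but was called after cyclic loess (0.477, adjusted p = 0.0108) and after centring on receptor genes (0.425, adjusted p = 0.0282), with adjusted p of 0.0108 to 0.242 over all alternatives; it did not exceed the receptor-gene percentile on any normal array. Itga2b, the alpha chain of the platelet fibrinogen receptor, was at 8.0 to 8.4 in adenocarcinomas, against 8.2 to 8.5 in normal mucosa and was not called (-0.275, adjusted p = 0.0929). It was called as lower after median centring (0.0466) and without adenocarcinoma 3 (0.0369) or normal sample 2 (0.0453), with adjusted p of 0.0369 to 0.477 over all alternatives.

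Both remaining matrix and cell receptors, Itga9 and Itga4, rose. Itga9, which binds tenascin and the endothelial ligand VCAM1, was at 9.6, 9.9, 10 and 10 in adenocarcinoma, against 7.9, 7.3, 7.7 and 7.6 in normal mucosa. The groups were 1.7 apart at their nearest samples, and the difference was 2.25 ± 0.145 (4.76-fold, adjusted p = 8.56e-06). Itga4, a leukocyte receptor for VCAM1 and fibronectin, was at 8.0, 9.4, 8.8 and 8.4 in adenocarcinoma, against 7.4, 7.2, 7.6 and 7.2 in normal mucosa. It rose by 1.30 ± 0.264 (adjusted p = 0.00522), with adenocarcinoma 2 highest.

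None of the 3 laminin-binding alpha chains was called. Itga6, which pairs with Itgb4 in hemidesmosomes and with Itgb1 elsewhere, was at 11.9, 12.3, 12.1 and 12.1 in adenocarcinoma, against 12.1, 12.1, 12 and 11.9 in normal mucosa. These ranges overlap almost fully, and the difference was 0.075 with a 95% interval of -0.16 to 0.31. Itga3, an epithelial laminin receptor that pairs with Itgb1, was at 11.0 to 11.2 in adenocarcinomas, against 10.9 to 11.1 in normal mucosa (0.15, interval -0.05 to 0.35). It was called only after centring on receptor genes (0.30, adjusted p = 0.0453), with adjusted p of 0.0453 to 0.583 over all alternatives. Itga7, the laminin receptor of muscle, was at 8.3, 8.8, 9.4 and 8.7 in adenocarcinoma, against 9.6, 9.1, 9.4 and 9.4 in normal mucosa. Only adenocarcinoma 3 reached the normal samples. Its difference of -0.575 was not called (adjusted p = 0.057; interval -1.06 to -0.09) and was called as lower without that tumour (-0.775, adjusted p = 0.00675) and after median centring (0.0409), with adjusted p of 0.00675 to 0.188 over all alternatives.

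**Figure D2:**
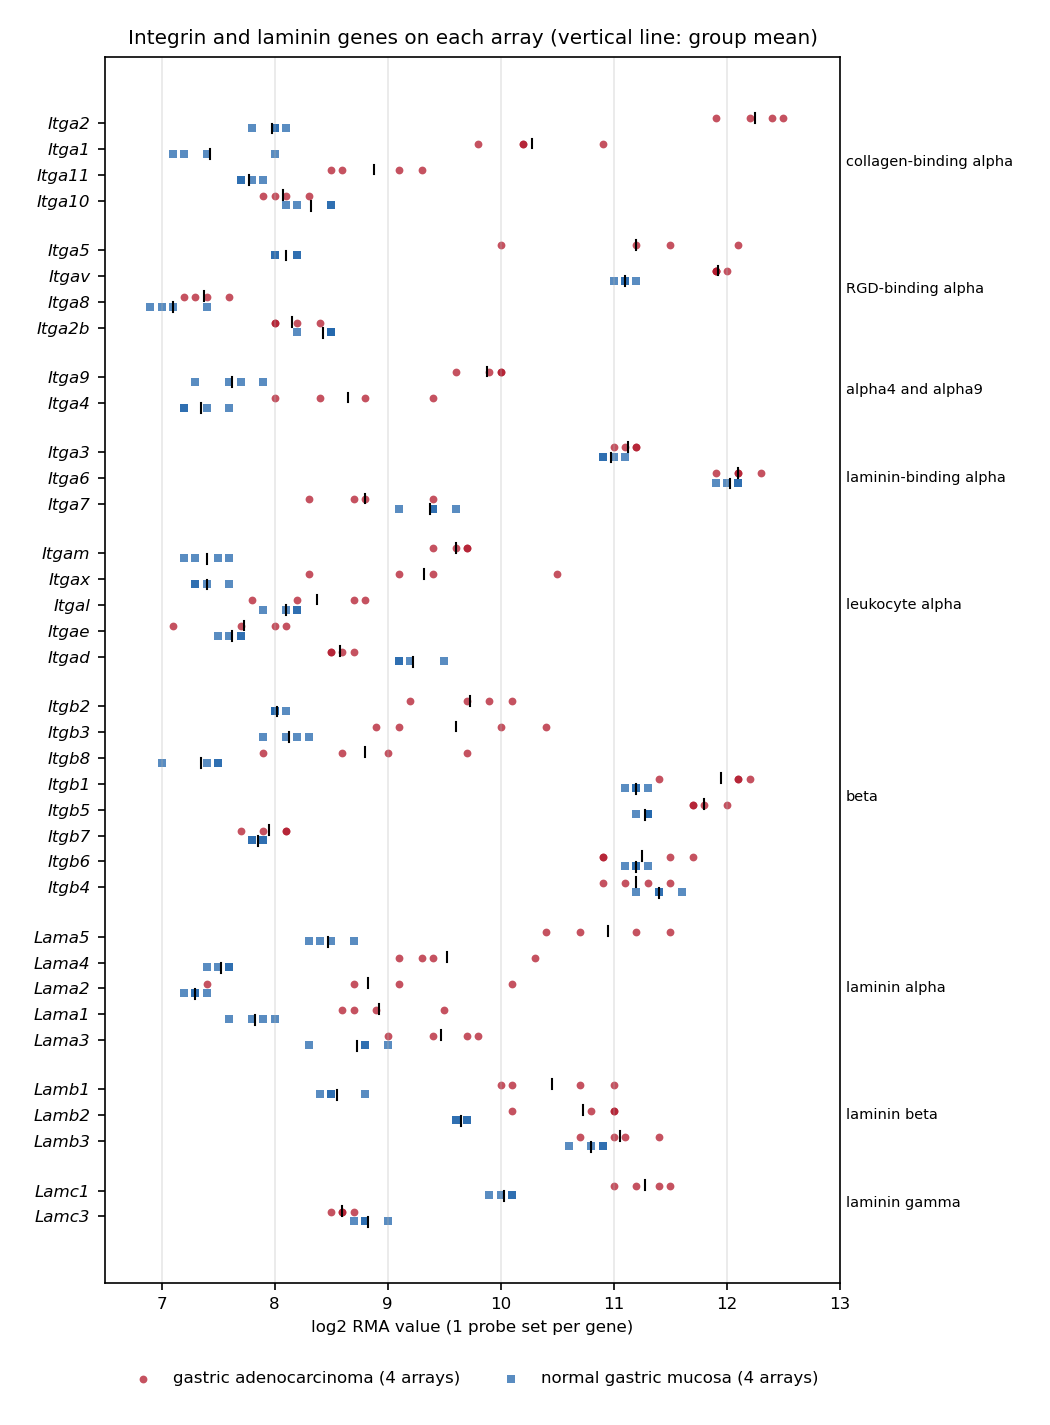
Log2 RMA values (horizontal axis) of 36 of the 37 genes (rows, grouped by ligand or chain type) on each array, with red circles for the 4 adenocarcinomas, blue squares for the 4 normal samples and a vertical line at each group mean. Levels can be compared within a row, not between rows, since each gene has its own probes; the red and blue points of Itga2 are 3.8 apart at their nearest, while those of Itga6 overlap.

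Of the 5 leukocyte alpha chains, 2 rose, 1 fell and 2 were not called. Itgb2, the beta chain shared by leukocyte integrins, was at 9.2, 10.1, 9.7 and 9.9 in adenocarcinoma, against 8.0, 8.0, 8.1 and 8.0 in normal mucosa. It rose by 1.70 ± 0.173 with separate groups (adjusted p = 0.000121). Its myeloid partner Itgam, the alpha chain of the complement receptor of macrophages and neutrophils, was at 9.4, 9.7, 9.6 and 9.7 in adenocarcinoma, against 7.5, 7.2, 7.6 and 7.3 in normal mucosa (difference 2.20 ± 0.117, adjusted p = 2.98e-06). Itgax, typical of dendritic cells and some macrophages, was at 9.1, 10.5, 8.3 and 9.4 in adenocarcinoma, against 7.3, 7.3, 7.4 and 7.6 in normal mucosa. It rose by 1.93 ± 0.38 (adjusted p = 0.00455) but varied widely between tumours, with adenocarcinoma 2 highest and adenocarcinoma 3 lowest. Itgal, the alpha chain found on most lymphocytes, was at 7.8, 8.7, 8.2 and 8.8 in adenocarcinoma, against 8.2, 7.9, 8.1 and 8.2 in normal mucosa, and was not called (0.275, interval -0.20 to 0.75). Without adenocarcinoma 1 it was called as higher (0.467, adjusted p = 0.0462; range over all alternatives 0.0462 to 0.596). Itgae and its partner Itgb7, which together mark T cells within epithelium, were not called either (0.10 each, adjusted p = 0.699 and 0.462).

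Beside these values, 7 of 8 general leukocyte markers and 5 of 5 macrophage and monocyte markers rose, with medians of 2.33 and 3.18, whereas of 5 T cell markers none rose and Cd8a fell (-0.40), a call lost after centring on receptor genes. The mean level of the leukocyte markers was 9.76 to 10.56 in adenocarcinomas, against 8.04 to 8.24 in normal mucosa, and that of the T cell markers was 7.24 to 7.86 in adenocarcinomas, against 7.48 to 7.68 in normal mucosa. Cd3d exceeded the 95th percentile of the receptor genes on 0 of 4 arrays of each group, and Cd2 on 0 of 4 normal arrays. Part of the T cell list thus lay at background. Of the leukocyte and macrophage markers, Cd53 and Emr1 also exceeded that percentile on 0 of 4 normal arrays. In bulk samples, more cells of a type and more RNA per cell cannot be told apart, and the part of cell numbers in any integrin or laminin change was not tested. Itgad, which with Itgam and Itgax forms a cluster on chromosome 7 with gaps of 2.4 and 3.4 kb in the deposited table, was the 1 member that fell. It was at 8.5, 8.5, 8.7 and 8.6 in adenocarcinoma, against 9.1, 9.2, 9.5 and 9.1 in normal mucosa, with separate groups and a difference of -0.65 ± 0.111 (1.57-fold lower, adjusted p = 0.00213). A second probe set of Itgad also gave a lower value (-0.375; adjusted p = 0.0106 over all probe sets).

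Of the 8 beta chains, 5 rose and 3 were not called. Itgb1, the partner of most matrix-binding alpha chains, was at 12.2, 12.1, 12.1 and 11.4 in adenocarcinoma, against 11.2, 11.3, 11.1 and 11.2 in normal mucosa. It rose by 0.75 ± 0.169 (adjusted p = 0.00837), and adenocarcinoma 4 lay close to the normal samples. A second Itgb1 probe set, placed on the opposite strand in the deposited table, had 9.0, 8.9, 9.2 and 9.2 in adenocarcinoma, against 9.3, 9.1, 9.4 and 9.3 in normal mucosa, and was not called (-0.20, adjusted p = 0.147 over all probe sets), and the mean of both probe sets rose by 0.275 only (adjusted p = 0.0424; range over all alternatives 0.000162 to 0.0424). Itgb3, the partner of Itgav and of Itga2b, was at 8.9, 9.1, 10.4 and 10 in adenocarcinoma, against 8.3, 7.9, 8.2 and 8.1 in normal mucosa (1.48 ± 0.307, adjusted p = 0.00586). Adenocarcinomas 3 and 4 were the high ones. The platelet markers Pf4 and Ppbp were highest in adenocarcinoma 3 as well, Pf4 with 7.8, 8.4, 10 and 9.9 in adenocarcinoma against 7.4 to 7.6 in normal mucosa. Of 5 measured platelet markers, Pf4 and Ppbp rose, Gp5 fell and 2 were not called. Only 1 rise was called without any 1 of the normal samples, and no fall after cyclic loess or centring on receptor genes.

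Itgb8 and Itgb5 both pair with Itgav. Itgb8, an activator of latent TGF-beta, was at 9.0, 8.6, 9.7 and 7.9 in adenocarcinoma, against 7.5, 7.0, 7.4 and 7.5 in normal mucosa (1.45 ± 0.328, adjusted p = 0.00857). Itgb5, a vitronectin receptor chain, was at 11.7, 12, 11.8 and 11.7 in adenocarcinoma, against 11.2, 11.3, 11.3 and 11.3 in normal mucosa (0.525 ± 0.0926, adjusted p = 0.00256). For both chains every tumour exceeded every normal sample. Itgb6, the epithelial partner of Itgav, was at 11.5, 11.7, 10.9 and 10.9 in adenocarcinoma, against 11.1, 11.2, 11.3 and 11.2 in normal mucosa. Adenocarcinomas 1 and 2 lay above all normal samples and adenocarcinomas 3 and 4 below, so the difference was 0.05 with an interval of -0.37 to 0.47. Itgb4 was at 10.9, 11.3, 11.1 and 11.5 in adenocarcinoma, against 11.6, 11.2, 11.4 and 11.4 in normal mucosa, and was not called (-0.20, interval -0.52 to 0.12). The mean of its probe sets, of which the second lies on the opposite strand, was called as lower (-0.30, adjusted p = 0.0392; range over all alternatives 0.0392 to 0.841).

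All 5 laminin alpha chains rose, 3 of them with separate groups. Lama5, the widespread alpha chain of epithelial and vascular basement membranes, was at 11.5, 10.7, 11.2 and 10.4 in adenocarcinoma, against 8.7, 8.3, 8.4 and 8.5 in normal mucosa. The difference was 2.48 ± 0.223 (adjusted p = 6.09e-05), and the lowest tumour was 1.7 above the highest normal sample. Lama4, an alpha chain of vessels and muscle, was at 9.3, 9.4, 10.3 and 9.1 in adenocarcinoma, against 7.5, 7.6, 7.6 and 7.4 in normal mucosa (2 ± 0.23, or 4-fold, adjusted p = 0.000248). Lama1, best known from embryonic basement membranes, was at 8.7, 8.6, 8.9 and 9.5 in adenocarcinoma, against 8.0, 7.6, 7.8 and 7.9 in normal mucosa (1.10 ± 0.191, adjusted p = 0.00234). Lama3, the alpha chain of the anchoring laminin of epithelia, was at 9.8, 9.7, 9.0 and 9.4 in adenocarcinoma, against 9.0, 8.3, 8.8 and 8.8 in normal mucosa. Its rise of 0.75 ± 0.202 was called (adjusted p = 0.0181) although adenocarcinoma 3 equalled the highest normal sample.

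Lama2, the laminin alpha chain of muscle and nerve, varied most between tumours of all 37 genes. It was at 8.7, 9.1, 10.1 and 7.4 in adenocarcinoma, against 7.4, 7.3, 7.2 and 7.3 in normal mucosa, an SD of 1.12 between tumours and 0.0816 between normal samples. Adenocarcinoma 4 was level with normal mucosa. The rise of 1.53 ± 0.46 was called (adjusted p = 0.0278) but not without adenocarcinoma 2 (0.0674) or normal sample 1, 2, 3 or 4 (0.0591, 0.0556, 0.0706 and 0.0642), with adjusted p of 0.00121 to 0.0706 over all alternatives. Smooth muscle markers also varied between tumours, with a mean level of 9.22, 11.88, 12.2 and 10.43 in adenocarcinomas 1 to 4 and 7.82 to 7.97 in normal mucosa. Adenocarcinoma 3 was highest for both these markers and Lama2, while adenocarcinoma 1 was lowest for the markers and adenocarcinoma 4 for Lama2. All 6 smooth muscle markers rose, as did 6 of 6 fibroblast and 6 of 6 endothelial markers (medians 3.14, 3.09 and 2.31). Fibroblast markers averaged 10.9 to 11.93 in adenocarcinomas, against 7.93 to 8.25 in normal mucosa, and endothelial markers 9.47 to 10.53 in adenocarcinomas, against 7.25 to 7.35 in normal mucosa. The endothelial markers Cdh5, Kdr, Tek and Emcn and the fibroblast marker Lum exceeded the 95th percentile of the receptor genes on 0 of 4 normal arrays. The differences of these genes were thus taken against background.

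The beta chains Lamb1 and Lamb2 and the gamma chain Lamc1 rose. Lamb1 was at 11.0, 10, 10.7 and 10.1 in adenocarcinoma, against 8.4, 8.5, 8.8 and 8.5 in normal mucosa (1.90 ± 0.218, adjusted p = 0.000248). Lamb2, a beta chain of vessel and muscle basement membranes, was at 11.0, 10.8, 11.0 and 10.1 in adenocarcinoma, against 9.6, 9.7, 9.7 and 9.6 in normal mucosa (1.08 ± 0.188, adjusted p = 0.00248). Lamc1, the gamma chain of most laminins, was at 11.2, 11.5, 11.4 and 11.0 in adenocarcinoma, against 10, 10.1, 9.9 and 10.1 in normal mucosa (1.25 ± 0.12, adjusted p = 9.05e-05). In these 3 chains every tumour lay above every normal sample. Lamb3, the beta chain of the epithelial anchoring laminin, was at 11.1, 11.4, 10.7 and 11.0 in adenocarcinoma, against 10.9, 10.8, 10.6 and 10.9 in normal mucosa, and was not called (0.25, interval -0.08 to 0.58). Lamc3 was at 8.5 to 8.7 in adenocarcinomas, against 8.7 to 9.0 in normal mucosa and was not called (-0.225, adjusted p = 0.0774).

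Whether paired or related chains changed equally was examined for 10 pairs as the difference between both genes on each array. The level of such a difference depends on the probes, so only its shift between groups was read. How far the shift also depends on the probes was not tested. Each shift was given an exact permutation p, two-sided, over the 70 assignments of arrays to groups (smallest possible p = 0.0286), with Benjamini-Hochberg adjustment over the 10 pairs. Of the 9 pairs given here, 5 had separate groups and an adjusted p of 0.0477, the lowest reached. Each of these 5 had the smallest possible permutation p of 0.0286. Their adjusted value therefore depends on how many of the 10 pairs reached that p. Itga5 minus Itgb1 was -2.2, -0.9, 0.0 and 0.1 in adenocarcinoma, against -3.0, -3.3, -3.1 and -3.0 in normal mucosa. The array value of the fibronectin receptor's alpha chain thus rose by 2.35 more than that of its beta chain. Itgal minus Itgb2 was -1.4, -1.4, -1.5 and -1.1 in adenocarcinoma, against 0.2, -0.1, 0.0 and 0.2 in normal mucosa (shift -1.43), while Itgam minus Itgb2 shifted by 0.50 the other way. For Itgam minus Itgb2 the nearest values, -0.4 in adenocarcinoma 2 and -0.5 in normal samples 1 and 3, were only the rounding step of the deposited values apart. The platelet receptor pair Itga2b minus Itgb3 shifted by -1.75.

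Itgav minus Itgb6 was 0.4, 0.2, 1.1 and 1.0 in adenocarcinoma, against 0.1, -0.1, -0.3 and -0.1 in normal mucosa (shift 0.775). Here too the nearest values, 0.2 in adenocarcinoma 2 and 0.1 in normal sample 1, were only the rounding step apart. For Lamb3 minus Lamb2 the groups met at 0.9 and the shift of -0.825 did not pass (adjusted p = 0.0816, exact permutation). Nor did the shifts of Itga6 minus Itgb4 (0.275, adjusted p = 0.107), Lama4 minus Lama5 (-0.475, adjusted p = 0.159) and Itgae minus Itgb7 (0, adjusted p = 1) in the exact permutation test. Both centrings cannot change a difference within an array. Under the 11 other alternative settings the 10 shifts moved by less than the SD between replicates in 110 of 110 cases. Most of these cases could not have come out otherwise. Leaving out 1 array cannot move a shift by that SD, and averaging probe sets changes only pairs with a gene of several probe sets. The count is therefore no measure of how stable the shifts are.

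**Figure D3:**
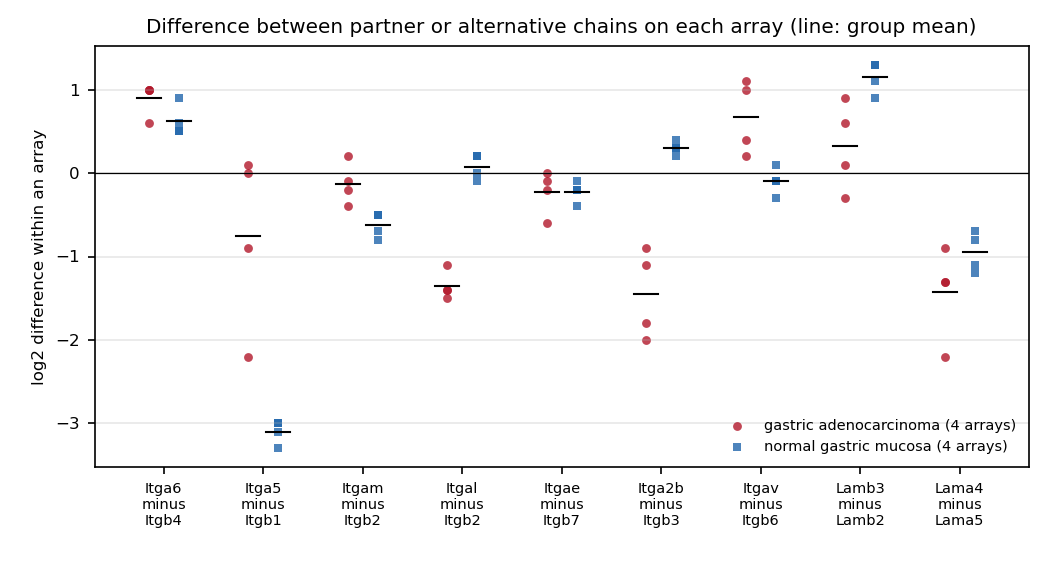
Difference of log2 RMA values between 2 chains on the same array (vertical axis) for 9 pairs (horizontal axis), with red circles for the 4 adenocarcinomas, blue squares for the 4 normal samples and a line at each group mean. Itga5 minus Itgb1 shows the widest gap between group means (2.35), and the groups of Itgae minus Itgb7 have equal means.

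Ligands and partners of these receptors were read from fixed lists, by count and median beside 41.8% called and a median of -0.10 over all genes. Of 16 integrin ligands 10 rose, Nov fell and 5 were not called (median 2.37). The number of falls was 0 after cyclic loess, after centring on receptor genes and without adenocarcinoma 1 or 2 or normal sample 1, 3 or 4, and it was 2 without adenocarcinoma 3. Tenascin-C (Tnc, 4.48) and fibronectin (Fn1, 4.45), thrombospondin (Thbs1, 4.23) and fibrillin (Fbn1, 3.90) had the largest called differences. Tnc and Fbn1 exceeded the 95th percentile of the receptor genes on 4 of 4 adenocarcinoma arrays and on 0 of 4 normal arrays, so their differences were taken against background. Tnc was at 9.8, 11.6, 12.7 and 12.2 in adenocarcinoma, against 6.9 to 7.4 in normal mucosa, lowest in adenocarcinoma 1 as Itga5 was. This order was not particular to these genes. Among the adenocarcinomas, the mean levels of the fibroblast, endothelial, smooth muscle and leukocyte markers were lowest in adenocarcinoma 1 as well. So were those of the T cell, platelet, Schwann cell, adipocyte, and parietal and chief cell markers. The mean level of the gastric epithelium markers hardly differed between tumours (13.14 to 13.2), and that of the squamous epithelium markers was lowest in adenocarcinoma 4. Of 17 further basement membrane genes 8 rose, 4 fell and 5 were not called (median 0.30). The rises included Sparc (4.13), the laminin-binding linker nidogen-1 (Nid1, 3.63) and the collagen IV chains Col4a2 (2.33) and Col4a1 (2.03), and the falls included the basement membrane component Frem2 (-1.73) and the collagen IV chains Col4a3 (-0.50) and Col4a4 (-0.40).

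Of 9 hemidesmosome proteins and other laminin receptors, 5 rose, 2 fell and 2 were not called (median 0.35). Bcam, a receptor for Lama5-containing laminin, was at 11.2, 11.0, 11.2 and 9.8 in adenocarcinoma, against 8.8, 8.8, 9.0 and 9.2 in normal mucosa, a rise of 1.85 (adjusted p = 0.00144). The plakins Dst (-0.525, adjusted p = 0.0203) and Plec (-0.25, adjusted p = 0.0461), which tie Itgb4 to keratin, fell slightly, and the hemidesmosomal collagen Col17a1 was not called (-0.20). Of this list's 2 falls, 0 were left after centring on receptor genes and without normal sample 3 or 4, and 1 after median centring, without the dimmest 30% of genes, with robust eBayes, with the replicate block and without adenocarcinoma 2, 3 or 4 or normal sample 1, while cyclic loess gave 3 falls. Of 25 focal adhesion genes 13 rose, none fell and 12 were not called (median 0.375). Filamin A (Flna, 3.18), kindlin-2 (Fermt2, 1.98), alpha-actinin-1 (Actn1, 1.68) and Rsu1 (1.20) led them, while the kinase Ptk2 was at 9.8 to 10.1 in adenocarcinomas, against 9.8 in all 4 normal samples (0.10, adjusted p = 0.384).

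**Figure D4:**
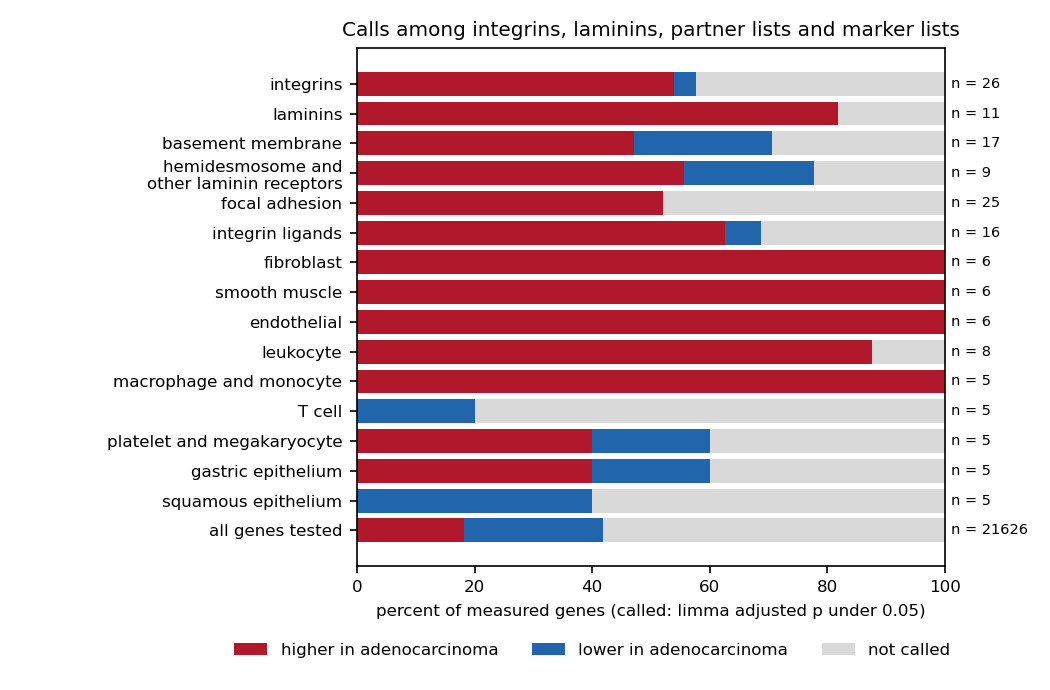
Percent of measured genes (horizontal axis) called higher in adenocarcinoma (red), called lower (blue) or not called (grey) by limma, for integrins, laminins, 4 partner lists, 9 marker lists and all genes tested (rows), with the number of measured genes at the right. The marker lists of parietal and chief cells, Schwann cells and adipocytes are not drawn. Laminins were called higher in 9 of 11 cases and integrins in 14 of 26, beside 18.2% of all genes; the T cell and squamous epithelium markers show no rise.

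For 29 of the 37 genes (78.4%) the SD was larger among the adenocarcinomas, as it was for 68.7% of all genes, with a median SD of 0.37 in adenocarcinomas, against 0.141 in normal mucosa, beside 0.189 and 0.129 over all genes. SDs above 0.5 were found for 7 genes in adenocarcinoma and for none in normal mucosa. Among the 23 genes that rose, the highest value belonged to adenocarcinoma 3 alone in 7, to adenocarcinoma 2 in 5, to adenocarcinoma 1 in 4 and to adenocarcinoma 4 in 3, the rest being tied. The 7 with adenocarcinoma 3 alone highest were Itga5, Itgav, Itga1, Itgb3, Itgb8, Lama4 and Lama2. Markers of squamous epithelium, which lines the forestomach and is rich in hemidesmosomes, gave no call upward with all 8 arrays (0 of 5 rose, Krt13 and Trp63 fell), although Krt4 ranged over 7.5 to 11.6 in adenocarcinomas, against 7.6 to 7.8 in normal mucosa. Of these 2 falls, 0 were called after cyclic loess or centring on receptor genes and 1 with any array left out, and 1 squamous marker was called higher without adenocarcinoma 4.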

How the data were processed

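Total RNA of 4 adenocarcinomas and 4 normal mucosa samples was prepared with a Qiagen kit, then biotin-labelled for Affymetrix arrays, per the labels' protocols. The authors made the values with RMA, per the submitters' processing notes; no source used here gives its version or settings. The deposited values were taken as log2 from their range. The values were rounded to 1 decimal (284448 of 284448), and the value table held the same values (0 differences, tolerance 1e-06). Of 35556 probe sets, 28350 are gene probe sets. Those with a single symbol gave 21626 genes, 1799 of them with over 1 probe set, and the probe set with the highest mean was used. Groups came from sample titles. Adenocarcinoma was compared with normal mucosa with limma 3.58.1 in R 4.3.3 (lmFit, eBayes, two-sided, Benjamini-Hochberg over all genes); SE is the model's. The number of arrays limits precision.

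Alternatives were median centring, cyclic loess, centring on receptor genes, 32 units added before log2, dropping the dimmest 30%, averaging each gene's probe sets, robust eBayes with a trend, a replicate block, each array left out and an adjusted p under 0.01. Tested on simulated data (21626 genes, 200 changed), the fit of this comparison recovered 12 of 67 changes of 0.5, 51 of 67 of 1 and 63 of 66 of 2 on the log2 scale. Of its 134 calls, 8 were false. In the data 41.8% of genes were called, a far larger share than was changed in the simulation, so the adjustment was stricter in the simulation. These rates therefore do not give the recovery in the data. The members and lists were chosen with earlier results of these data known. Values of 1 member are not reported here, though counts include it; all others were named, and from each list at most the 4 called genes of largest change, beside others chosen after their values were seen. RefSeq promoter windows were matched by symbol. Plots used matplotlib 3.10.9 and pandas 2.3.3 under Python 3.11.15.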

Additional observations from a re-analysis of the deposited data

Results flagged for a closer look

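In 74 groups of 4 samples (37 genes, 2 tissues), 5 held a sample whose gap to its nearest neighbour exceeded 0.829 of the group's range, and chance flags about 1 group in 20. Itgb1 was at 11.4 in adenocarcinoma 4, with a gap of 0.7 to the other tumours. Itga2b was at 8.2 in normal sample 2, below the other normal samples at 8.5. The remaining 3, with gaps of 0.1, the rounding step of the deposited values, were Itgav at 12 in adenocarcinoma 3, Itgb2 at 8.1 in normal sample 3 and Itgb5 at 11.2 in normal sample 1.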

How the results depend on the processing

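Of the 24 integrins and laminins called, 21 kept their direction and their call under all 17 alternatives; the exceptions included Lama2, given in the report, and Lama3, which was not called at an adjusted p under 0.01 (0.0181). Of the 13 not called, 4 stayed so with the same direction under all alternatives. Direction turned, without a call, for Itgb6 after cyclic loess (-0.034) and in leave-outs (-0.10 to 0.167), for Itga6 after cyclic loess (-0.027) and for Itgae in leave-outs (-0.025 to 0.308). Leaving out 1 array gave 21 to 23 higher and 1 to 3 lower calls; 3 were lower after median centring and 2 with probe sets averaged. Over all genes, rises numbered 2376 and falls 1912 at an adjusted p under 0.01, and falls numbered 3029 after cyclic loess, 1700 after centring on receptor genes, 3180 without the dimmest 30% of genes and 2975 to 5456 with 1 array left out, beside 3942 rises and 5099 falls. Of 544 counts of list genes under the alternatives, 485 stayed within 1.5-fold of the reported count. Samples sharing a replicate number between groups had correlations of deviations of -0.175, 0.0949, 0.158 and 0.0376. Not every sample correlated best with its own number, but so few arrays cannot show whether the numbers pair the samples. With a replicate block 22 of the 37 genes were higher, 1 was lower, and 3578 genes rose and 4519 fell over all. Causes of these shifts were not tested.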

Other observations

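Genes with integrin-like names outside the symbol pattern were read as well. Itgbl1, a secreted protein related to integrin beta chains, was at 8.4, 8.7, 9.6 and 7.1 in adenocarcinoma, against 7.2, 6.8, 7.3 and 7.3 in normal mucosa, with adenocarcinoma 4 at the level of normal mucosa as for Lama2. Its difference was 1.30 ± 0.436 (limma adjusted p = 0.0403). Itgb2l, a gene related to Itgb2, was at 7.4 to 7.7 in adenocarcinomas, against 7.9 to 8.1 in normal mucosa (-0.50 ± 0.1, adjusted p = 0.00495), opposite in direction to Itgb2. The values of Itgb2l lay little above the 95th percentile of the receptor genes, itself lower in adenocarcinomas (7.1 to 7.3, against 7.3 to 7.6 in normal mucosa). Itgbl1 exceeded that percentile on 3 of 4 adenocarcinoma arrays and on 0 of 4 normal arrays, so its difference was taken against background.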
